A study of Mus musculus with 6 samples.

Results

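The genes described here encode the glycosyltransferases that start, branch, lengthen and cap mucin-type O-glycans, together with the galactosyltransferases, sialyltransferases and fucosyltransferases that finish glycan chains in the Golgi. Members were the rows whose Ensembl ID maps to a mouse symbol of the Galnt, Gcnt, B3gnt, B3galt, B4galt, B4galnt, St3gal, St6gal (with St6galnac) or Fut families, without Fut8, or to C1galt1 or its chaperone gene C1galt1c1. This gave 72 of the 22274 listed genes, with 71 distinct symbols, since St6galnac2 has a second row. RNA was sequenced from epithelial cells isolated from the mouse ileum in 3 control libraries and 3 Ogt knockout libraries. The knockout mice carried floxed Ogt together with Olfm4-CreER, a tamoxifen-inducible recombinase driven by a gene of crypt stem cells. The control libraries are labelled LoxP, and no recombinase is given for them. Loss of Ogt and an effect of the recombinase or its driver therefore cannot be told apart. The protocol states tamoxifen at 2 months of age, for 3 days in a row, with collection on day 10, and does not list the treatment of the controls separately. Whether each library is a different animal is not in the labels, so the tests measure only how these samples vary, which may be technical. The libraries are called control 1 to 3 and knockout 1 to 3 here, after the numbers in their labels.

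A mucin-type O-glycan begins when a GALNT enzyme attaches N-acetylgalactosamine (GalNAc) to a serine or threonine of a protein in the secretory pathway. Galactose or N-acetylglucosamine (GlcNAc) is then added to form a core, which can be branched, extended with galactose and GlcNAc, and capped with sialic acid, fucose or a further GalNAc. In the intestine these chains make up most of the mass of secreted and membrane mucins, form binding sites for bacteria and protect the proteins beneath them. Ogt encodes a different enzyme, O-GlcNAc transferase, which places single GlcNAc residues on nuclear and cytoplasmic proteins. Both kinds of enzyme draw on nucleotide sugars made in the same cells.

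Upstream sequences are shown for the 3 members with a changed transcript level that have an entry in the RefSeq promoter table, Gcnt1, St3gal6 and B4galt3, and for St3gal4, the most abundant member. Each is the 250 bases before the first listed transcription start, from RefSeq on GRCm38.p6, an older build than the GRCm39 named for the counts, and is written on the strand of the gene from its 5′ end. Gcnt1 lies at chr19:17372845-17373094 on the minus strand and is the first of 3 listed starts. St3gal6, the first of 2 listed starts, lies at chr16:58524254-58524503 on the minus strand, St3gal4 at chr9:35116865-35117114 on the minus strand and B4galt3 at chr1:171270078-171270327 on the plus strand. Both strands were searched, and capitals mark matches to 4 motifs. The letters TATAAA are the core promoter element bound by the TATA-binding protein. The letters CCAAT are bound by NF-Y. The letters GGGCGG are a GC box, bound by Sp1. The letters TGACGTCA are the cyclic AMP response element.
Gcnt1: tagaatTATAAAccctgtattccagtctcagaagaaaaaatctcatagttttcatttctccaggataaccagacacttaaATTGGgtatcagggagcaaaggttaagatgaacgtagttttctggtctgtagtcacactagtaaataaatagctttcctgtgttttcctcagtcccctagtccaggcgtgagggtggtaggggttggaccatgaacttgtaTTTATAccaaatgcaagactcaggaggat
St3gal6: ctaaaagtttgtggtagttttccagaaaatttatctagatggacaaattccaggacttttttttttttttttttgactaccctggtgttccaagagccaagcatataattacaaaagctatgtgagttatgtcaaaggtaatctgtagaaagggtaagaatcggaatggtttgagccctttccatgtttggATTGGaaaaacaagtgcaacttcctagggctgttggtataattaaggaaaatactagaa
B4galt3: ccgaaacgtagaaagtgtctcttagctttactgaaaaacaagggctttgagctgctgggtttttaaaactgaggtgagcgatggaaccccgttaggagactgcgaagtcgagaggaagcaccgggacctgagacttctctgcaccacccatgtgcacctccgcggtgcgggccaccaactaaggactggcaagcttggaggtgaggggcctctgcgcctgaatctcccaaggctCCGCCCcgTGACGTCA
St3gal4: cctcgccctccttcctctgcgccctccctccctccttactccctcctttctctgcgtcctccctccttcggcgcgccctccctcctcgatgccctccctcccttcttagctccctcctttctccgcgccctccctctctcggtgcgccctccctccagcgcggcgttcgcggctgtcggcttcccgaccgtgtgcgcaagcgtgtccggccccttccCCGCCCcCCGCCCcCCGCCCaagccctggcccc

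The Gcnt1 stretch held TATA box letters at -244 to -239 from the start and, as the reverse complement TTTATA, at -29 to -24. Its CCAAT box letters, at -170 to -166, also read as the reverse complement, ATTGG. The St3gal6 stretch held only a CCAAT match, again as ATTGG, at -59 to -55. In St3gal4 there were 3 GC boxes in tandem, between -33 and -14, and in B4galt3 a GC box at -16 to -11 stood beside the cyclic AMP response element at -8 to -1. All of these GC boxes read as the reverse complement, CCGCCC. No printed match overlapped another. Of the 52 member symbols with an entry, 57.7% held a GC box, against 32.9% of the first listed starts of 27025 genes, and 3.85% held a TATA box, against 13%. The median GC content of these stretches was 60.4% in the members and 52% over all genes. CCAAT matches stood in 28.8% of the members and 34.5% of all genes, and cyclic AMP response elements in 3.85% and 1.62%. Matches to an E-box (CACGTG) were in 5.77% of the members and 6.05% of all genes, and matches to a STAT motif (TTCNNNGAA) in 7.69% and 7.18%. A CDX2 motif (TTTATGG) and an HNF4 motif (CAAAGTCCA) were each in 1 member, Galnt9 and B3gnt3, against 2.45% and 0.381% of all genes. These are matches of letters and were not tested for binding.

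Library totals ranged from 14389429 to 18076479 estimated counts. Levels within a gene are given as CPM, counts relative to the TMM-scaled library size, and levels between genes as the FPKM values of the authors, which account for transcript length. Ogt itself was at 140.1, 127 and 128 CPM in the controls and at 48.5, 43.0 and 36.0 CPM in the knockouts, a log2 fold change of -1.63 ± 0.13 (SE, n = 3 and 3, adjusted p = 0.00121). The protocol describes the ileal epithelium of the knockout as lacking Ogt at collection, and the counts do not say which cells, or which part of the transcript, the remaining reads came from. Adjusted p-values are from the quasi-likelihood test of edgeR with Benjamini-Hochberg adjustment over 14005 tested genes unless another test is named, and a gene past 0.05 is called changed. Enterocyte markers were present in all libraries, with a summed level of 20587 to 35079 CPM. Markers of other cells were present too, among them those of B and plasma cells at 1771 to 7689.6 CPM and of smooth muscle at 849.9 to 2226 CPM. The RNA was therefore not from epithelium alone.

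Of the 72 members, 59 had enough counts to be tested, and 5 of them changed. Gcnt1 and B4galt3 rose in the knockout, and Gcnt3, St3gal6 and Galnt2 fell. The share of members called, 8.47%, was below that of all tested genes, of which 18.7% were called (9.33% higher and 9.37% lower). An unadjusted p under 0.05 was reached by 21 of the 59 members, where 34% of all tested genes reached it. The control and knockout values did not overlap for 9 members that were higher and 10 that were lower in the knockout, where 19.6% and 20.2% of all tested genes did so (39.8% together). With scaling by library size alone, the test called 14.6% of all genes higher and 6.13% lower (20.7% in all), and 6 members higher and 2 lower. With the Wald test of DESeq2, 22.9% of all genes (11.9% higher, 11% lower) and 23.7% of the members were called. The median log2 fold change of the tested members was -0.07, against -0.05 over all genes. Tuft cell markers fell in the same libraries, 8 of 9 tested, from a summed 112 to 121 CPM in the controls to 33.3 to 39.3 CPM in the knockouts, with no marker at 0 in all libraries. Their part in the changes of the members was not tested, and in bulk RNA fewer cells of a type and less RNA per cell cannot be told apart. The other 13 members never exceeded 11 counts in a library, which left them untested. These were Galnt9, Galnt13, Galnt14, Galnt17, Galntl5, Gcnt7, B3gnt4, Fut1, Fut7, Fut9, St6gal2, St6galnac1 and St6galnac5, and Fut9 and Galntl5 had no count in any library, where 3 counts correspond to 0.159 to 0.207 CPM.

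**Figure D1:**
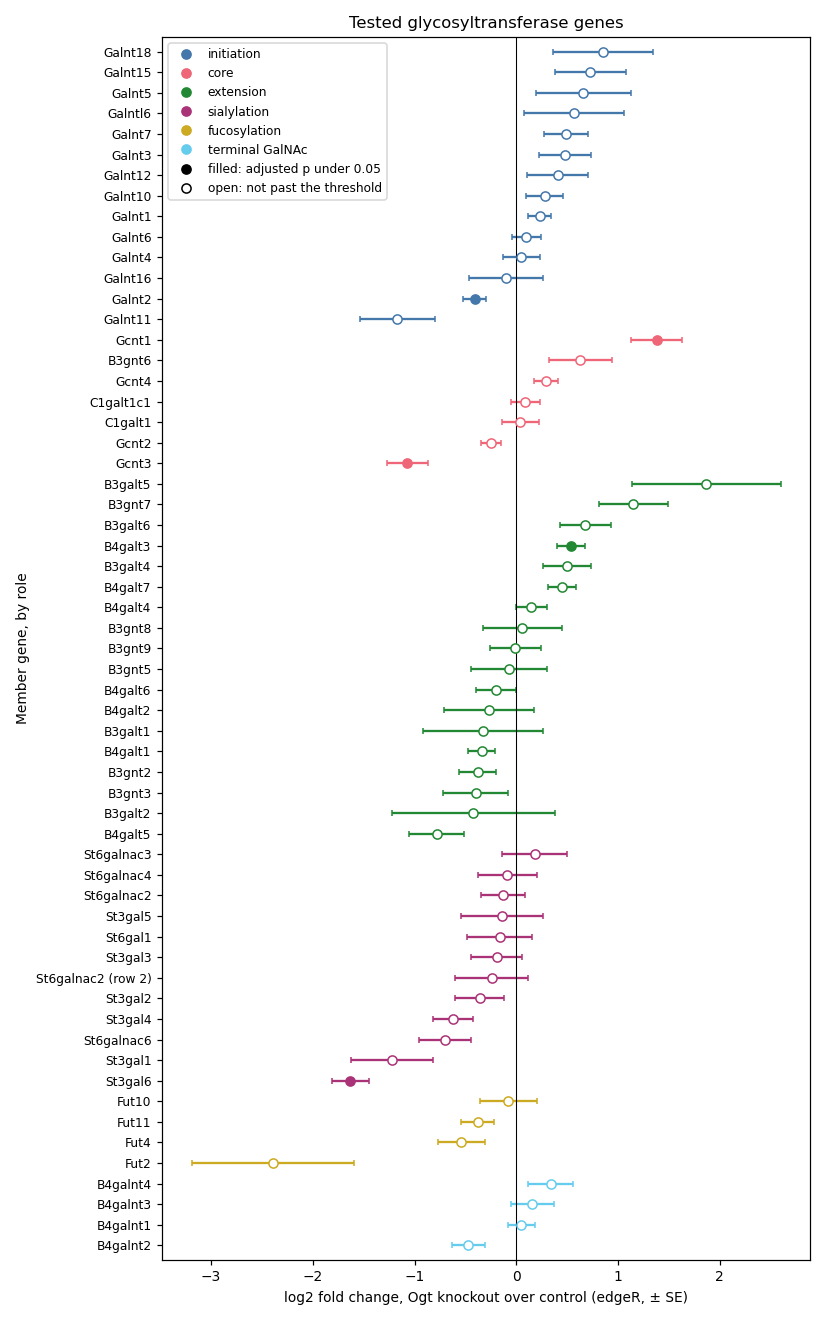
Log2 fold change of each tested member in the Ogt knockout over control, with its SE from edgeR, ordered by role. Filled points mark the 5 members past an adjusted p of 0.05. The points of sialylation lie left of 0 for 11 of 12 rows and those of initiation right of 0 for 11 of 14. Of all tested genes, 46.3% had a positive log2 fold change.

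Transcript levels per length differed widely among the members. St3gal4, which adds sialic acid to terminal galactose, had a mean of 2037 FPKM over the 6 libraries and supplied 61.4% to 74.3% of the summed FPKM of all members in each library. It ranked between 17 and 32 among all genes of a library by FPKM. These shares and ranks depend on the transcript lengths behind FPKM, which were not given. In CPM, which leaves length out, the mean of St3gal4 was 1639, where all members summed to 4079.6 to 5454 CPM per library. B4galnt2, which adds the terminal GalNAc of the Sda blood group antigen, followed with 174 FPKM, ahead of Galnt1 with 89.7 FPKM and Galnt6 with 78.1 FPKM. In CPM, Galnt1 was ahead of B4galnt2, with means of 330.4 and 302, and Galnt6 was at 296. The St3gal4 level was 10.2 to 14.0 times that of B4galnt2 in the controls and 10.7 to 12.0 times in the knockouts. The most abundant members of the remaining roles were B3gnt3 at 54.0 FPKM among the extension enzymes, C1galt1c1 at 34.3 FPKM among the core enzymes and Fut4 at 5.04 FPKM among the fucosyltransferases.

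**Figure D2:**
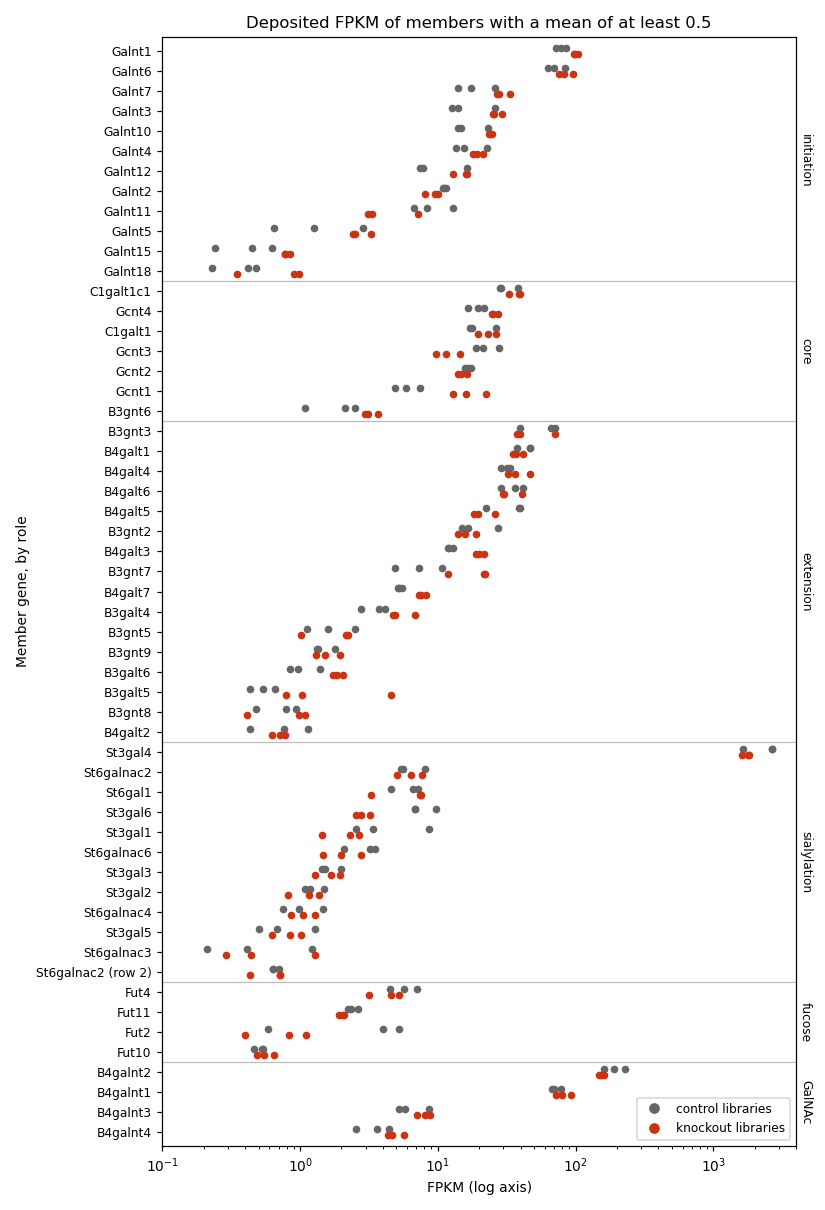
Deposited FPKM of members with a mean of at least 0.5 FPKM, on a log axis, with 1 point per library and members ordered by role and mean level. St3gal4 lies above every other member in each library, and the level of B4galnt2 is next.

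Among the enzymes that start the chain, 1 of 14 tested changed (7.14%, against 18.7% of all genes). This was Galnt2, a broadly acting GalNAc transferase. Its level was 47.8, 47.7 and 48.6 CPM in the controls and 39.2, 31.3 and 37.8 CPM in the knockouts. All 3 knockout values lay below the narrow range of the controls. The means were 48.1 ± 0.479 and 36.1 ± 4.19 CPM (SD, n = 3 each), a log2 fold change of -0.41 ± 0.11 (SE, adjusted p = 0.0394). This call was lost without any 1 of the 6 libraries (adjusted p from 0.0549 to 0.134) and with scaling by library size alone (adjusted p = 0.123). The annotated gene Gm20388 covers 90% of its exon bases on the same strand and was not used here, so the reads cannot be assigned to Galnt2 alone.

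The other initiation genes mostly had positive fold changes that did not pass the test. Of the 14 tested, 11 had a positive log2 fold change, with a median of 0.35, where 46.3% of all genes had a positive one. An unadjusted p under 0.05 was reached by 2 of the 14, against 34% of all genes. The role's summed level was 1191, 913 and 985 CPM in the controls and 1251, 1163 and 1113 CPM in the knockouts, so control 1 lay among the knockouts. Galnt1, the most abundant, was at 302, 283 and 328 CPM against 369, 339 and 361 CPM. Every knockout value exceeded every control value, yet the log2 fold change of 0.23 ± 0.11 had an adjusted p of 0.181. Galnt7, which prefers peptides that already carry GalNAc, had a log2 fold change of 0.49 ± 0.22 (adjusted p = 0.153). Galnt11, known for glycosylating Notch1 and lipoprotein receptors, was at 21.6, 17.9 and 34.0 CPM in the controls and 8.43, 7.39 and 16.7 CPM in the knockouts. Its log2 fold change of -1.17 ± 0.37 was the lowest of the role and missed the threshold (adjusted p = 0.0673). Galnt11 was called in 3 of 18 alternatives, among them the Wald test of DESeq2 (adjusted p = 0.00764). Galnt1 and Galnt6 together made up 53.9% to 63.0% of the initiation FPKM in the controls and 56.0% to 60.2% in the knockouts.

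Of the 7 tested core enzymes, 2 changed (28.6%, against 18.7% of all genes). Both are branching enzymes, and they changed in opposite directions. Gcnt1, the core 2 branching enzyme known from leukocytes, was at 21.0, 28.5 and 36.4 CPM in the controls and 59.2, 96.9 and 66.7 CPM in the knockouts. The lowest knockout value lay well above the highest control value. Gcnt1 rose from 28.6 ± 7.68 to 74.3 ± 19.9 CPM (SD, n = 3 each), a 2.59-fold increase and a log2 fold change of 1.38 ± 0.25 (SE, adjusted p = 0.0124). It was called in all 18 alternative analyses, with an adjusted p of 0.0154 to 0.0393 when 1 library was left out.

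Gcnt3, the mucin-type enzyme that builds core 2 and core 4 branches in mucus-secreting tissues, was at 123, 87.2 and 97.7 CPM in the controls and 61.9, 46.7 and 38.6 CPM in the knockouts. The ranges did not overlap. Gcnt3 fell from 103 ± 18.5 to 49.0 ± 11.8 CPM (SD, n = 3 each), 2.10-fold lower, with a log2 fold change of -1.07 ± 0.20 (SE, adjusted p = 0.0113). The call was lost without knockout 2 (adjusted p = 0.0535) and kept in the other 17 alternatives. Gcnt4, a further core 2 enzyme, was at 112, 106 and 89.3 CPM against 125, 133 and 117 CPM. Its groups did not overlap either, but the log2 fold change of 0.29 ± 0.12 did not pass (adjusted p = 0.118). Goblet cell markers summed to 15983, 8580.3 and 6853 CPM in the controls and 6694, 8349 and 4799 CPM in the knockouts, and none was at 0 in all libraries. Of 9 tested, 2 were called lower, Zg16 and Clca1 (22.2%, against 18.7% of all genes). In all, 6 had a negative log2 fold change, while Spdef, Agr2 and Spink4 had positive ones (0.26, 0.09 and 0.30). Without control 1, Spdef and Agr2 were called higher and Zg16 and Clca1 lower, where 13.6% and 9.63% of all genes were. The part of goblet cells in the fall of Gcnt3 was not tested.

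**Figure D3:**
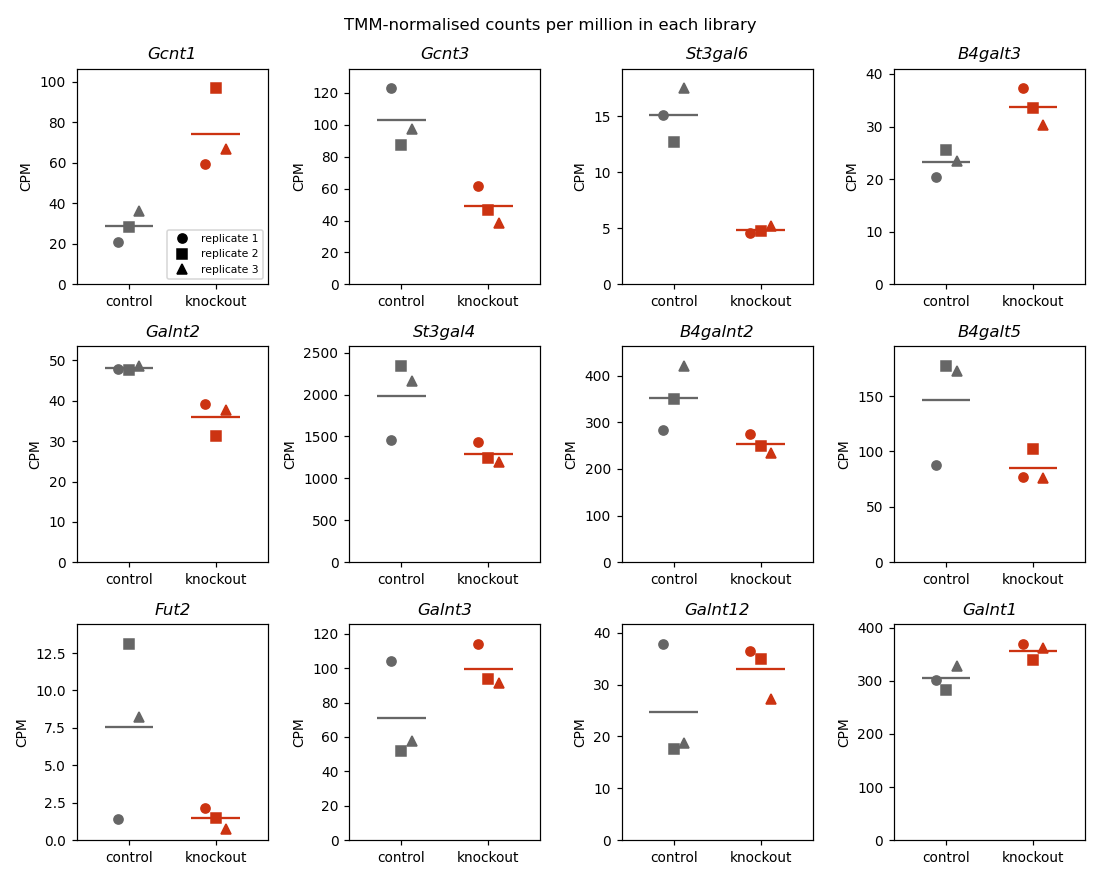
TMM-normalised CPM of 12 members in each library, with the mean of each group as a line and a symbol per replicate number; each axis starts at 0. Gcnt1 is higher and Gcnt3 and St3gal6 are lower in all 3 knockouts, while for Fut2, Galnt3 and Galnt12 the first control lies away from the other controls, on the side of the knockouts.

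Per length, the balance between the core branching enzymes within a library differed between the groups. The ratio of Gcnt1 to Gcnt3 FPKM was 0.174, 0.305 and 0.348 in the controls and 0.894, 1.96 and 1.63 in the knockouts. Gcnt1 thus stood below Gcnt3 in every control and in knockout 1, and above it in knockouts 2 and 3. Of the summed FPKM of Gcnt1, Gcnt3 and Gcnt4, Gcnt1 had 8.98%, 13.1% and 16.4% in the controls and 24.8%, 36.5% and 31.3% in the knockouts. The share of Gcnt3 was 51.6%, 42.9% and 47.2% in the controls and 27.8%, 18.6% and 19.2% in the knockouts. Gcnt4 had 39.5%, 44.0% and 36.5% in the controls and 47.4%, 44.9% and 49.4% in the knockouts, which made it the most abundant of the 3 in control 2 and in every knockout. The sum of the 3 was 54.4, 44.6 and 45.3 FPKM in the controls and 52.1, 61.3 and 50.6 FPKM in the knockouts, and these ranges overlapped. The ratios restate the levels of the called genes and were not tested separately.

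**Figure D4:**
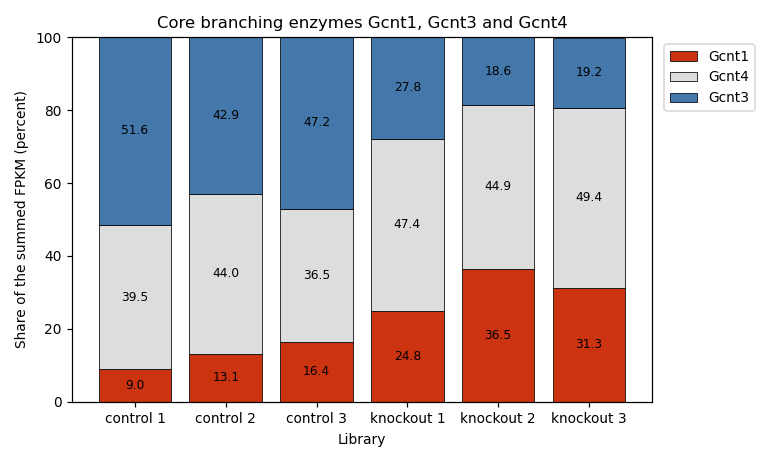
Share of Gcnt1, Gcnt4 and Gcnt3 in their summed FPKM, in percent, 1 bar per library. The share of Gcnt1 is 8.98% to 16.4% in the controls and 24.8% to 36.5% in the knockouts, and that of Gcnt3 is 42.9% to 51.6% and 18.6% to 27.8%.

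The enzyme that makes core 1 and its chaperone had small differences. C1galt1, which adds the galactose of core 1, had a log2 fold change of 0.04 ± 0.18 with a 95% interval of -0.37 to 0.45. C1galt1c1, which encodes the chaperone Cosmc, was at 56.5, 43.3 and 44.4 CPM in the controls and 55.8, 45.3 and 52.3 CPM in the knockouts. Its groups overlapped, and the log2 fold change was 0.09 ± 0.14 with a 95% interval of -0.22 to 0.40. B3gnt6, which makes core 3 in the gut, was at 2.62, 6.31 and 5.35 CPM against 7.40, 6.72 and 8.04 CPM (log2 fold change 0.63 ± 0.31, adjusted p = 0.195). Gcnt2, which branches lactosamine chains into the I antigen, was at 71.3 to 76.6 CPM in the controls and 55.7 to 67.0 CPM in the knockouts (log2 fold change -0.25 ± 0.10, adjusted p = 0.126).

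Of 18 tested genes that extend the chain, 1 changed (5.56%, against 18.7% of all genes). B4galt3, a galactosyltransferase that builds lactosamine, was at 20.5, 25.5 and 23.5 CPM in the controls and 37.3, 33.6 and 30.3 CPM in the knockouts. All knockout values were above all control values. B4galt3 rose from 23.2 ± 2.53 to 33.7 ± 3.50 CPM (SD, n = 3 each), 1.45-fold, with a log2 fold change of 0.54 ± 0.14 (SE, adjusted p = 0.0288). The call was lost without control 3, knockout 1, knockout 2 or knockout 3, with an adjusted p of up to 0.0872. Ppox, on the opposite strand, overlaps 14.5% of its exon bases and had a log2 fold change of -0.08 ± 0.22 (adjusted p = 0.821). The library kit does not mark strand.

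Other galactosyltransferases differed in sign. B4galt1, the general lactosamine enzyme, was at 191, 196 and 158 CPM against 164, 132 and 136 CPM (log2 fold change -0.34 ± 0.13, adjusted p = 0.114). Its FPKM was 3.09 to 3.96 times that of B4galt3 in the controls and 1.75 to 1.95 times in the knockouts, and these ranges of the ratio did not overlap. The ratio restates the levels of both genes, of which B4galt3 was called, and was not tested separately. B4galt7, which acts on the linker of proteoglycans, was at 10.7 to 11.8 CPM in the controls and 14.4 to 16.7 CPM in the knockouts (log2 fold change 0.45 ± 0.14, adjusted p = 0.0549, called in 8 of 18 alternatives). B3galt6, which acts on the same linker, had a log2 fold change of 0.68 ± 0.25 (adjusted p = 0.0961). B4galt5, the lactosylceramide synthase, was at 87.7, 177 and 173 CPM against 77.1, 102 and 76.0 CPM (log2 fold change -0.78 ± 0.27, adjusted p = 0.0941). It was called in 2 of 18 alternatives, among them the Wald test of DESeq2 (adjusted p = 0.022). B3galt5, which makes type 1 chains, was at 2.35 to 3.47 CPM in the controls and at 23.6, 3.89 and 4.87 CPM in the knockouts. Knockout 1 was far above the other libraries, and the log2 fold change of 1.87 ± 0.73 did not pass (adjusted p = 0.128). Of 15 alternatives, only the Wald test of DESeq2 called B3galt5 (adjusted p = 0.00954).

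The GlcNAc transferases of the extension step did not pass the test. B3gnt3, the most abundant, was at 122, 230.1 and 214 CPM in the controls and 115, 204 and 111 CPM in the knockouts, with overlapping groups and a log2 fold change of -0.40 ± 0.32 (adjusted p = 0.423). B3gnt7, known for extending keratan sulfate chains, was at 18.9, 29.0 and 13.4 CPM in the controls and 55.1, 28.9 and 51.6 CPM in the knockouts. Knockout 2 lay at the level of control 2, and the log2 fold change of 1.15 ± 0.34 had an adjusted p of 0.0574, although 9 of the 18 alternatives called it. Over the role, 8 log2 fold changes were positive and 10 negative, with a median of -0.04.

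The sialyltransferases had 1 called gene among 12 tested (8.33%, against 18.7% of all genes). St3gal6, which sialylates lactosamine ends, was at 15.1, 12.7 and 17.5 CPM in the controls and 4.56, 4.78 and 5.24 CPM in the knockouts. The knockouts were tightly grouped and lay below every control. St3gal6 fell from 15.1 ± 2.43 to 4.86 ± 0.345 CPM (SD, n = 3 each), 3.10-fold lower, with a log2 fold change of -1.63 ± 0.18 (SE, adjusted p = 0.00234). It was called in all 18 alternatives, with an adjusted p of at most 0.0181 when 1 library was left out. Its deposited counts were not whole in any of the 6 libraries. Dcbld2, on the opposite strand, overlaps 26% of its exon bases, was at 8.30 and 6.05 CPM and had a log2 fold change of -0.45 ± 0.36 (adjusted p = 0.425).

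St3gal4 carried nearly all of the sialyltransferase transcripts, with 97.8% to 98.9% of their FPKM in each library. It was at 1459, 2339 and 2160.0 CPM in the controls and 1438, 1239 and 1199.9 CPM in the knockouts. Control 1 was only just above knockout 1, and the other controls were far above. The log2 fold change was -0.62 ± 0.20 (SE, n = 3 each), short of the threshold (adjusted p = 0.0611). Without control 1 it was -0.75 ± 0.12 and passed (adjusted p = 0.00508), and with the Wald test of DESeq2 on all libraries the adjusted p was 0.0108. St3gal4 was called in only these 2 of 18 alternatives, and the adjusted p reached 0.281 in the others. In FPKM the groups overlapped, with 1642, 2670.2 and 2677 in the controls and 1824, 1627 and 1782 in the knockouts. The ratio of St3gal4 to St3gal6 FPKM was 239 to 389 in the controls and 505 to 718 in the knockouts. It restates the levels of both genes, of which St3gal6 was called, and was not tested separately.

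St3gal1, which sialylates core 1, was at 34.2, 14.4 and 15.7 CPM in the controls and 5.81, 11.6 and 10.1 CPM in the knockouts. Control 1 stood apart as the highest, and the log2 fold change of -1.22 ± 0.40 did not pass (adjusted p = 0.0759). Without control 1 it was -0.66 ± 0.28 (adjusted p = 0.129). Of 17 alternatives, only the Wald test of DESeq2 called St3gal1 (adjusted p = 0.00939). St6galnac6, a ganglioside sialyltransferase, had a log2 fold change of -0.70 ± 0.26 (adjusted p = 0.0994). St6gal1, which acts mainly on N-glycans, had -0.16 ± 0.32, and St6galnac2 had -0.13 ± 0.22, with counts shared between its 2 rows. In all, 11 of the 12 tested rows, 2 of them for St6galnac2, had a negative log2 fold change, with a median of -0.22. Of all 14005 tested genes, 7526 had a negative one. Without control 1, 9 of the rows were negative and 3 positive, and with scaling by library size alone 8 were negative and 3 positive. Under that scaling the all-gene median was 0.09 in place of -0.05.

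None of the 4 tested fucosyltransferases changed, where 18.7% of all genes did. Fut2, the secretor enzyme that makes the H antigen on gut mucins, was at 1.40, 13.1 and 8.24 CPM in the controls and 2.14, 1.50 and 0.741 CPM in the knockouts. Controls 2 and 3 were above all knockouts, and control 1 was within their range. The log2 fold change was -2.39 ± 0.80 (SE, n = 3 each, adjusted p = 0.0832). Without control 1 it was -2.84 ± 0.41 and passed the test (adjusted p = 0.00442). Fut4, which makes Lewis X structures, was at 29.3, 19.4 and 24.8 CPM against 21.3, 12.3 and 17.1 CPM, with overlapping groups (log2 fold change -0.54 ± 0.23, adjusted p = 0.139). The log2 fold change was -0.38 ± 0.16 for Fut11 (adjusted p = 0.139) and -0.08 ± 0.28 for Fut10. The summed level of the role was 43.1 to 46.5 CPM in the controls and 23.7 to 34.4 CPM in the knockouts. An unadjusted p under 0.05, reached by 34% of all genes, was reached by 3 of the 4, and the Wald test of DESeq2 called 1, Fut2 (adjusted p = 0.00308). Fut2 was called in only 2 of 17 alternatives, that test and the fit without control 1, and its adjusted p reached 0.244 in the others.

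None of the 4 genes for terminal GalNAc changed either, where 18.7% of all genes did. B4galnt2 was at 284, 349 and 420.3 CPM in the controls and 275, 249 and 235 CPM in the knockouts. The groups did not overlap, although control 1 was close to knockout 1. The log2 fold change of -0.47 ± 0.16 did not pass the test (adjusted p = 0.0691), but did without control 1, at -0.56 ± 0.12 (adjusted p = 0.0146). B4galnt1, the ganglioside enzyme that makes GM2, had a log2 fold change of 0.05 ± 0.13 at a mean of 76.6 FPKM. Slc26a10, on the opposite strand, overlaps 20.7% of its exon bases, and the counts of B4galnt1 were not whole in the 6 libraries. B4galnt3 and B4galnt4, which make GalNAc-capped lactosamine, had 0.16 ± 0.21 and 0.34 ± 0.22. B4galnt2 alone of the 4 had an unadjusted p under 0.05 (34% of all genes did), and it was called by the Wald test of DESeq2 (adjusted p = 0.0341). That test and the fit without control 1 were the only 2 of 18 alternatives that called B4galnt2, and its adjusted p reached 0.216 in the others.

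Control 1 was unlike the other controls for many members. For 16 of 59 tested members (27.1%) controls 2 and 3 both lay beyond all knockouts on the same side and control 1 did not, lying within the knockout range or past its other end, against 16.3% of all tested genes. By this rule control 2 was set apart from the other controls in 3 members (5.08%, against 7.75% of all genes) and control 3 in 5 (8.47%, against 6.27%). The 16 included Galnt3, Galnt5, Galnt7, B4galt5 and Fut2, for which control 1 was within the knockout range, and Galnt4, Galnt10 and Galnt12, for which it was above every knockout. The summed level of enterocyte markers showed the same arrangement, with 22477 CPM in control 1, 35079 and 34174 CPM in controls 2 and 3, and 20587 to 24652 CPM in the knockouts. Single markers differed. Anpep was at 4616, 12113 and 10867 CPM in the controls, but Apoa4 was at 2226, 418 and 608 CPM. Of 10 tested, 3 were called lower (30%, against 18.7% of all genes). These were Alpi, Fabp1 and Fabp2, and for each of them control 1 lay above every knockout, with the other controls. Goblet markers were highest in control 1, and smooth muscle markers were at 924 CPM there lower than in controls 2 and 3 (2226 and 2139.5 CPM) and within the knockout range of 849.9 to 1297 CPM. The part of these cell types in the members' levels was not tested.

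Without control 1, 10 members were called higher and 6 lower, 26.7% of 60 tested, against 23.2% of all genes (13.6% higher and 9.63% lower). Galnt3, which acts on mucins and on the hormone FGF23, then had a log2 fold change of 0.91 ± 0.13 (adjusted p = 0.00374). Its values were 104, 51.8 and 57.7 CPM in the controls and 114, 93.6 and 91.2 CPM in the knockouts, and over all 6 libraries the log2 fold change was 0.48 ± 0.26 (adjusted p = 0.24). Galnt12, a colon-enriched initiation enzyme, had 0.90 ± 0.15 without control 1 (adjusted p = 0.00661) and 0.41 ± 0.30 with it (adjusted p = 0.382). Galnt5, Galnt7 and Galnt10 were also called higher without control 1, at 1.41 ± 0.31, 0.80 ± 0.15 and 0.58 ± 0.10 (adjusted p = 0.0161, 0.0103 and 0.00655). Gcnt4, B3galt6 and B4galt7 were further members called higher, at 0.40 ± 0.12, 0.94 ± 0.24 and 0.50 ± 0.15 (adjusted p = 0.0414, 0.0296 and 0.049). B4galt5 was then called lower, at -0.99 ± 0.14 (adjusted p = 0.00415). Of the 5 members called on all libraries, 4 kept their call, and Galnt2 did not. Leaving out any 1 of the other 5 libraries gave 1 to 3 members higher and 1 to 3 lower.

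Of 19 tested genes that make and import the sugar donors, 6 were higher and 1 was lower (36.8%, against 18.7% of all genes), with a median log2 fold change of 0.33. Slc35a2, the Golgi carrier of UDP-galactose, rose from 28.7 to 45.4 CPM, with a log2 fold change of 0.66 ± 0.14 (adjusted p = 0.0149). Galk1, which phosphorylates galactose, rose by 0.82 ± 0.18 (adjusted p = 0.0201). Gmds, the first enzyme of GDP-fucose synthesis and the most abundant of the list, was at 232, 181 and 191 CPM in the controls and 305, 265 and 324 CPM in the knockouts. Its groups did not overlap, and it rose by 0.57 ± 0.14 on the log2 scale (adjusted p = 0.0248).

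The sialic acid branch held calls in both directions. Nans, the sialic acid synthase, rose by 0.58 ± 0.15 on the log2 scale (adjusted p = 0.0321), and Cmas, which activates sialic acid to its nucleotide form, by 0.57 ± 0.14 (adjusted p = 0.0304). Gne, which makes the first committed intermediate, had a log2 fold change of -0.52 ± 0.15, from 52.4, 38.4 and 37.0 CPM in the controls to 30.4, 29.9 and 28.9 CPM in the knockouts (adjusted p = 0.0452). Its call was lost without any 1 library. Slc35a1, the Golgi carrier of the activated sialic acid, had -0.24 ± 0.22 (adjusted p = 0.489). The counts of the list rested on single libraries, and without control 3 or knockout 3 fewer of its genes (0) than of the members (3 and 4) were called. There were 7 higher genes when control 1 was left out, 1 when control 2 or knockout 1 was left out, 2 when knockout 2 was left out and 0 when control 3 or knockout 3 was left out, and no gene was lower in any of these fits. Slc35a2 lost its call without control 3 or knockout 3, Gmds without control 2, control 3, knockout 1 or knockout 3, and Galk1, Nans and Cmas without any 1 library other than control 1.

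**Figure D5:**
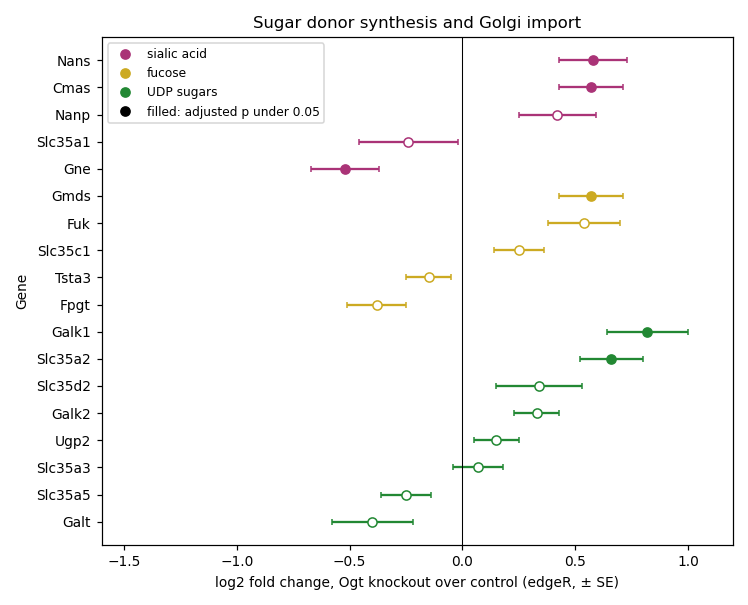
Log2 fold change, with its SE from edgeR, of 18 genes of nucleotide sugar synthesis and Golgi import, grouped by sugar. Filled points mark the 6 genes shown that passed an adjusted p of 0.05; 5 of these lie right of 0, and Gne lies left.

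Enzymes that modify the chains in other ways included the largest fold change of the glycan lists. Of 25 tested genes of sulfation, sialic acid polymers and related steps, 1 rose and 3 fell (16%, against 18.7% of all genes, median -0.15). Gal3st2b, a galactose sulfotransferase, was at 76.5, 44.4 and 57.1 CPM in the controls and 8.02, 6.50 and 6.24 CPM in the knockouts. Every control was far above every knockout, with a log2 fold change of -3.10 ± 0.22 (adjusted p = 0.00118) that was called whichever library was left out. Its near-identical neighbour Gal3st2 fell from 578 to 408 CPM, with a log2 fold change of -0.50 ± 0.12 (adjusted p = 0.0284). That call was lost without any 1 library other than control 1. Counts of both genes were not whole in the 6 libraries, so the division of reads between them is uncertain. Gal3st1, the sulfatide synthase, fell by 0.90 ± 0.18 on the log2 scale (adjusted p = 0.0146), and Slc35b2, the Golgi carrier of the sulfate donor, rose by 0.62 ± 0.12 (adjusted p = 0.0141). The first call was lost without control 2, knockout 2 or knockout 3, and the second without knockout 3.

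Mucin genes that carry these glycans were called in 2 of 10 tested, both lower (20%, close to the 18.7% of all genes). Muc3, a transmembrane mucin of the enterocyte brush border, was at 5569, 5923 and 8001 CPM in the controls and 4122, 4295 and 3578 CPM in the knockouts. The groups did not overlap, and the log2 fold change was -0.70 ± 0.19 (adjusted p = 0.0368). Muc3a fell by 0.91 ± 0.21 on the log2 scale (adjusted p = 0.0224). Muc13, the most abundant per length, had -0.10 ± 0.16 (adjusted p = 0.698), and Muc2, the secreted goblet cell mucin, had -0.46 ± 0.40 (adjusted p = 0.462). Cd164 had 0.25 ± 0.12 (adjusted p = 0.17). The Muc3 call was lost without any 1 library other than control 1, and that of Muc3a without control 3, knockout 2 or knockout 3.

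Glycosidases and other genes of glycan removal had no call among 15 tested, where 18.7% of all genes were called. An unadjusted p under 0.05 was reached by 6 (34% of all genes did). Fuca1, the lysosomal fucosidase, had a log2 fold change of 0.38 ± 0.12 (adjusted p = 0.0568). Neu2 had 1.30 ± 0.41 (adjusted p = 0.06), at low means of 0.462 CPM in the controls and 1.15 CPM in the knockouts. Ctsa had 0.37 ± 0.13 (adjusted p = 0.0812). Neu1, the lysosomal sialidase and the most abundant gene of the list, had 0.34 ± 0.26 (adjusted p = 0.396).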

How the data were processed

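Epithelial RNA from the ileum was sequenced in 3 control and 3 Ogt knockout libraries. Per the file headers, the authors deposited 1 table with estimated counts, also called expected counts, and FPKM values of each gene. The submitters' processing notes name GRCm39 and mm39; the aligner, the counter and the transcript lengths behind FPKM were not given in the sources used here. Per the labels, the NEBNext Ultra RNA kit was used. Between 7.68% and 8.09% of the counts per library were not whole (tolerance 0.001).

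Members and gene lists were chosen with earlier results of these data known. IDs were named from GENCODE M21 (22219 of 22274), an annotation of an older build, also used for exon overlaps. Counts were rounded, filtered with filterByExpr (minimum count 10, minimum total 15), scaled by TMM and tested with the quasi-likelihood test of edgeR 4.0.16 (robust, R 4.3.3), and Benjamini-Hochberg adjusted p-values (all tested genes) were held to 0.05. The SE comes from the F statistic. Named with values in each library were called members and the most abundant of each role, and with values the 3 of smallest p per role or list. Further members and list genes were chosen after their values were seen. No pair of libraries agreed within sampling noise (mean chi-square per gene at least 20.3). In a test on simulated data for this comparison (13851 genes), the test recovered 52 of 97 genes that differed 2-fold and 90 of 99 that differed 4-fold, with 13 false calls, and 0 when none changed. Only these genes were changed there, a far smaller share than the 18.7% of genes called in the data. The rates may therefore differ from those in the data.

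The 18 alternatives were 3 other scalings (library size alone, upper quartile, DESeq2 size factors), the Wald test of DESeq2 1.42.0, limma voom (3.58.1), no filter, at least 1 CPM in 3 libraries, a replicate block, each library left out, and limma on log2(FPKM + 0.1) or log2(FPKM + 0.01) with minima of 1 or 5 FPKM in 3 libraries or above 0 in 1 library. Of the list genes, 1 (Muc17) had no match and 4 were matched by synonym. The values of 1 gene of the sugar donor list are not reported here.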

Additional observations from a re-analysis of the deposited data

How the results depend on the processing

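The 2 members called higher became 6 with library size alone, 5 with the Wald test of DESeq2, 4 with the replicate block, 6 in the 3 FPKM fits with a minimum and 4 in the FPKM fit without one, and 1 to 10 when 1 library was left out. The 3 called lower became 9 with DESeq2, 5 with the replicate block and 1 to 6 when 1 library was left out. Over all genes, 1307 were higher and 1312 lower, and these counts were 2045 and 859 with library size alone, 549 to 1932 and 460 to 1372 when 1 library was left out; lower genes were 724, 717, 596 and 642 in the FPKM fits (pseudocount 0.1 and 0.01 with at least 1 FPKM, at least 5 FPKM, no minimum). Muc13, at -0.10, was at 0.04 with library size alone and in the 4 FPKM fits, and at -0.16 to 0.05 when 1 library was left out. For the 21 members named by the rule on p and abundance, the alternatives kept the side of the threshold in 319 cases, gained it in 39, lost it in 16 and reversed no sign. Of the further members described, 5 with small differences changed sign in some alternatives, ranging from -0.04 to 0.29 (C1galt1), -0.36 to 0.12 (St6gal1), -0.31 to 0.10 (St6galnac2), -0.12 to 0.12 (Fut10) and -0.05 to 0.18 (B4galnt1). The replicate numbers share no stated source: the deviations of same-numbered libraries correlated at 0.274, 0.253 and 0.084, each the highest for its number, and with the replicate block 3402 genes were called against 2619 (24.3% and 18.7%), with Galnt3, Galnt7, Fut4 and Galnt11 added among the members. The cause of these differences was not tested. A count of 0 allows up to 3 counts, 0.159 to 0.207 CPM (counting error only). Reads that similar or overlapping genes may share limit Galnt2, St3gal6, St6galnac2, B4galnt1, Gal3st2 and Gal3st2b.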

Other observations

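Enzymes that start other kinds of O-linked glycans were called in 5 of 16 tested genes, 1 higher and 4 lower (31.2%, against 18.7% of all genes). Kdelc1, an O-glucosyltransferase of Notch repeats, was at 6.51, 6.18 and 6.65 CPM in the controls and 2.70, 2.39 and 2.54 CPM in the knockouts, a log2 fold change of -1.34 ± 0.21 (adjusted p = 0.00553) that was called whichever library was left out. The subunits of the O-mannosyltransferase had opposite signs. Pomt2 fell, with -0.80 ± 0.18 (adjusted p = 0.0211), and Pomt1 rose, with 0.67 ± 0.18 (adjusted p = 0.0345), and both calls were lost without any 1 library other than control 1. The xylosyltransferases that start proteoglycan chains fell, Xylt1 by 1.33 ± 0.37 and Xylt2 by 0.67 ± 0.18 on the log2 scale (adjusted p = 0.0416 and 0.0401). Xylt1 lost its call without any 1 library other than control 2, and Xylt2 without any 1 other than control 1. Rfng, the most abundant gene of the list and a modifier of O-fucose on Notch, had -0.22 ± 0.14 (adjusted p = 0.318).

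Of 20 tested genes of Golgi organisation, 2 were higher and 3 lower (25%, against 18.7% of all genes, median 0.08). Cog6 rose by 0.43 ± 0.09 (adjusted p = 0.0135) and Cog5 had -0.42 ± 0.11 (adjusted p = 0.03); both encode subunits of the same Golgi tethering complex. Blzf1 rose by 0.52 ± 0.11 (adjusted p = 0.0156), and Golph3l, the most abundant gene of the list and related to a protein that retains glycosyltransferases in the Golgi, had -0.44 ± 0.10 (adjusted p = 0.0216). The calls of Cog6 and Blzf1 were lost without knockout 2 or knockout 3, that of Golph3l without any 1 library other than control 1, and those of Cog5 and Golgb1 (-0.35 ± 0.09, adjusted p = 0.0307) without any 1 library. Among 15 tested genes of the response to interleukin-22, a cytokine known to induce Fut2, 1 was higher and 3 lower (26.7%, against 18.7% of all genes). Their median was -0.17. Il22ra1, the receptor subunit, was at 83.0, 71.8 and 101 CPM in the controls and 59.0, 54.6 and 60.0 CPM in the knockouts, a log2 fold change of -0.56 ± 0.13 (adjusted p = 0.0251, lost without control 3 or any 1 knockout). Duox2 fell by 2.04 ± 0.36 (adjusted p = 0.0128, lost without knockout 3) and Duoxa2 by 2.08 ± 0.53 (adjusted p = 0.0442, lost without any 1 library other than control 1), while Lcn2 rose by 2.13 ± 0.51 from 0.559 CPM (adjusted p = 0.0255, lost without control 2, control 3, knockout 1 or knockout 3). Reg3b, the most abundant of the list, had 0.62 ± 0.51 (adjusted p = 0.435).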
